A study of Mus musculus with 9 samples.

Results

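A set of 35 interferon response and MHC class I genes was followed in bulk RNA sequencing of mouse kidney. The genes were taken from a named list chosen by function, with earlier results of these data known. Of the 35, 34 had a row in the deposited table of 26139 genes, and Mx1 was not analysed here. A filter of at least 1 FPKM in at least 3 libraries kept 32 of them among 11617 tested genes, and Nlrc5 and Xaf1 fell below it. FPKM scales the fragments of a gene to the length of the gene and the depth of the library, so levels can be compared between genes.

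The kidneys came from 3 groups with 3 libraries each. GQYS mice carried Itgam-IRES-hCD89, in which the human IgA receptor CD89 is expressed from the Itgam locus of myeloid cells, and were gavaged daily with Gui-qi-yi-shen granules (GQYS), a herbal preparation, for 5 months. IgAN mice carried the same knock-in and received saline, and stand for IgA nephropathy, a kidney disease with IgA deposits in the glomeruli. WT mice were C57/BL6 wild type on saline, so the knock-in is shared by the first pair of groups and no wild-type mouse received the granules. The labels give neither age nor sex. Nor do they say whether each library is a different mouse, so the p-values below rest on a library-to-library spread that may be partly technical.

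Interferons are secreted cytokines that act through cell surface receptors and JAK kinases. Type I interferon activates a complex that contains STAT2 and IRF9 and binds interferon-stimulated response elements (ISRE), while interferon gamma acts through gamma-activated sites (GAS). The genes switched on include antiviral effectors, GTPases that attack vacuoles holding pathogens, and the machinery that cuts proteins into peptides and presents them on MHC class I to CD8 T cells. In kidney these genes have a low constant activity and rise in viral infection, lupus nephritis and rejection of a graft.

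The gene-assigned reads, recovered from the steps of the FPKM values, numbered 30564947 in the shallowest and 38161564 in the deepest library. WT replicate 1 had 18.6% of its reads in mitochondrially encoded genes, against 7.81% to 13.3% in the other 8 libraries, and its median tested gene lay 0.10 below that gene's mean over the 9 libraries on the log2(FPKM + 1) scale. Kidney markers were high in every library, with 5 proximal tubule genes summing to between 2075 and 2749 FPKM. Of the leukocyte marker lists, the neutrophil list alone held markers that passed the test, 3 in IgAN against WT and 3 in GQYS against IgAN. Only 1 of 10 T and NK cell markers and 2 of 6 B and plasma cell markers were tested. The 6 B and plasma cell genes summed to 9.45 to 13.2 FPKM in GQYS, 2.37 to 7.01 FPKM in IgAN and 9.13 to 29.3 FPKM in WT. Of these, Cd79a and Ms4a1 were at 0 in at least 1 library. The 8 neutrophil genes, of which Retnlg, Ly6g, Camp and Ngp were at 0 in at least 1 library, summed to 2.5 to 3.56 FPKM in GQYS, 27.2 to 34.7 FPKM in IgAN and 1.24 to 3.68 FPKM in WT, and their part in the results below was not tested. Among the 34 genes the number of reads per library ranged between 41 for the lowest value of Usp18 and 10226 for the highest value of B2m, and all intervals below rest on the spread between libraries.

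Promoter stretches of 8 of the genes are shown because they hold the ISRE core in genes whose levels are given below. The ISRE core was searched as 2 copies of GAAA with any 2 bases between them, on both strands, in 300-base windows of RefSeq promoters (GRCm38.p6), from 250 bases before to 50 bases after the gene start. Capitals mark the core, which shows as a pair of TTTC where it lies on the other strand, and each line runs 5′ to 3′ on the strand of the gene.
Isg15 (chr4:156200860-156200911, minus strand): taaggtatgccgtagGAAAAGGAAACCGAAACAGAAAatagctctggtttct
Ifit1 (chr19:34640770-34640828, plus strand): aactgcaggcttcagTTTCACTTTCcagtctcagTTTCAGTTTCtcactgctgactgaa
Ifit3 (chr19:34583358-34583431, plus strand): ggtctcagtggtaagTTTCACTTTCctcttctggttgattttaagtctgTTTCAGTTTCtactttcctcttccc
Bst2 (chr8:71537572-71537617, minus strand): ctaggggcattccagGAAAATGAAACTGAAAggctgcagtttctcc
Igtp (chr11:58199507-58199546, plus strand): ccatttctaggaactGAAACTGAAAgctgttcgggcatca
Irgm1 (chr11:48871420-48871465, minus strand): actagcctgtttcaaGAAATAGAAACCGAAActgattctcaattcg
Gbp2 (chr3:142620589-142620628, plus strand): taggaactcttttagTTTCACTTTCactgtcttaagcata
B2m (chr2:122147533-122147572, plus strand): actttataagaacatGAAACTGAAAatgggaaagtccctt

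The run in Isg15 holds 3 overlapping copies between bases -78 and -57 from the gene start. Ifit1 and Ifit3, neighbours in the Ifit cluster, each have 2 separate copies. In all, 29 of the 35 genes had a window in the table, with 35 windows between them. The ISRE core was found in 13 of these 29 genes and 37.1% of their windows, against 3.44% of 32851 windows of all genes. The GAS core, searched as TTCNNNGAA, which reads the same on both strands, was found in 8 of the 29 genes and 22.9% of their windows, against 8.30% of all windows. In 11 of the 29 genes neither core was found. Both cores were found in Bst2, Gbp7 and Igtp, and in Bst2 the GAS match overlaps the ISRE run. A match describes the letters of the window and is no evidence of binding in these kidneys.

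**Figure D1:**
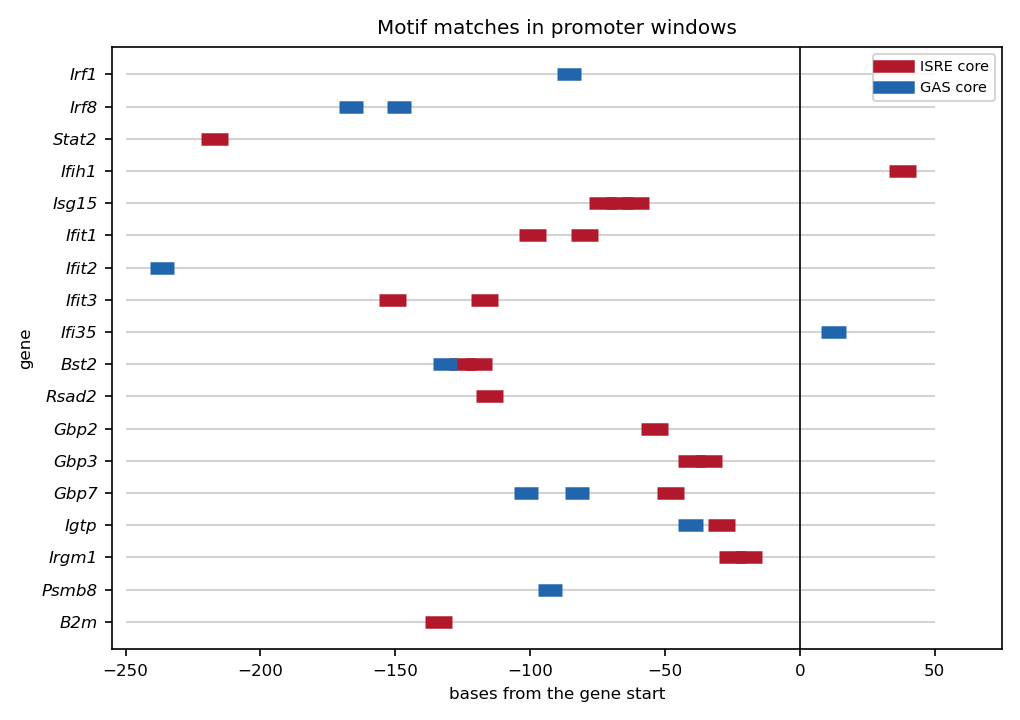
Matches to the ISRE core (red) and the GAS core (blue) in promoter windows of the 18 genes that held at least 1 match, by distance in bases from the gene start (vertical line). ISRE matches of most genes lie within 160 bases before the start, that of Stat2 begins at -222 and that of Ifih1 lies after the start.

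No interferon or MHC class I gene was called between the 3 groups in the reported fit. With 3 libraries each, this does not show that the groups were alike, and likeness was not tested. The intervals of the 32 tested genes reached a median of 0.36 log2 units to either side of the fitted change in each comparison. At an adjusted p of 0.05, limma called 0 of the 32 tested genes in each of the 3 comparisons, and limma-voom on the recovered reads also called 0. The background share of all tested genes called was 0.353% (41 genes) for IgAN against WT, 0.198% (23 genes) for GQYS against IgAN and 0.0% (0 genes) for GQYS against WT. At an unadjusted p below 0.05 the count for IgAN against WT was 5 of 32, all higher in IgAN, where the background was 10.3% of all tested genes (6.97% higher and 3.37% lower). That count was 1 to 3 with other scalings of the libraries. It was 0 of 32 for GQYS against IgAN, beside a background of 10.4% (5.53% higher and 4.9% lower), and 0 of 32 for GQYS against WT, beside 4.43% (3.33% higher and 1.1% lower). The lowest adjusted p of any of the genes was 0.358, for Oasl2 in IgAN against WT.

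IgAN replicate 1 held most of the highest values of the genes and WT replicate 3 most of the lowest. They lie in different groups, so their gap includes any difference between IgAN and WT. IgAN replicate 1 was the highest of the 9 libraries for 18 of the 34 genes with a row (52.9%), while it was the highest for 19.5% of all tested genes. WT replicate 3 was the lowest library for 24 of the 34 (70.6%), against 13.5% of all tested genes, and lay below the mean of the gene for 31 of the 34. The median deviation of the 32 tested genes from their mean over the 9 libraries was 0.17 in IgAN replicate 1 and -0.27 in WT replicate 3 on the log2(FPKM + 1) scale. It lay between -0.04 and 0.09 in the other 7 libraries. The median SD over the 9 libraries was 0.21 on that scale for the 32 genes and 0.19 for all tested genes.

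**Figure D2:**
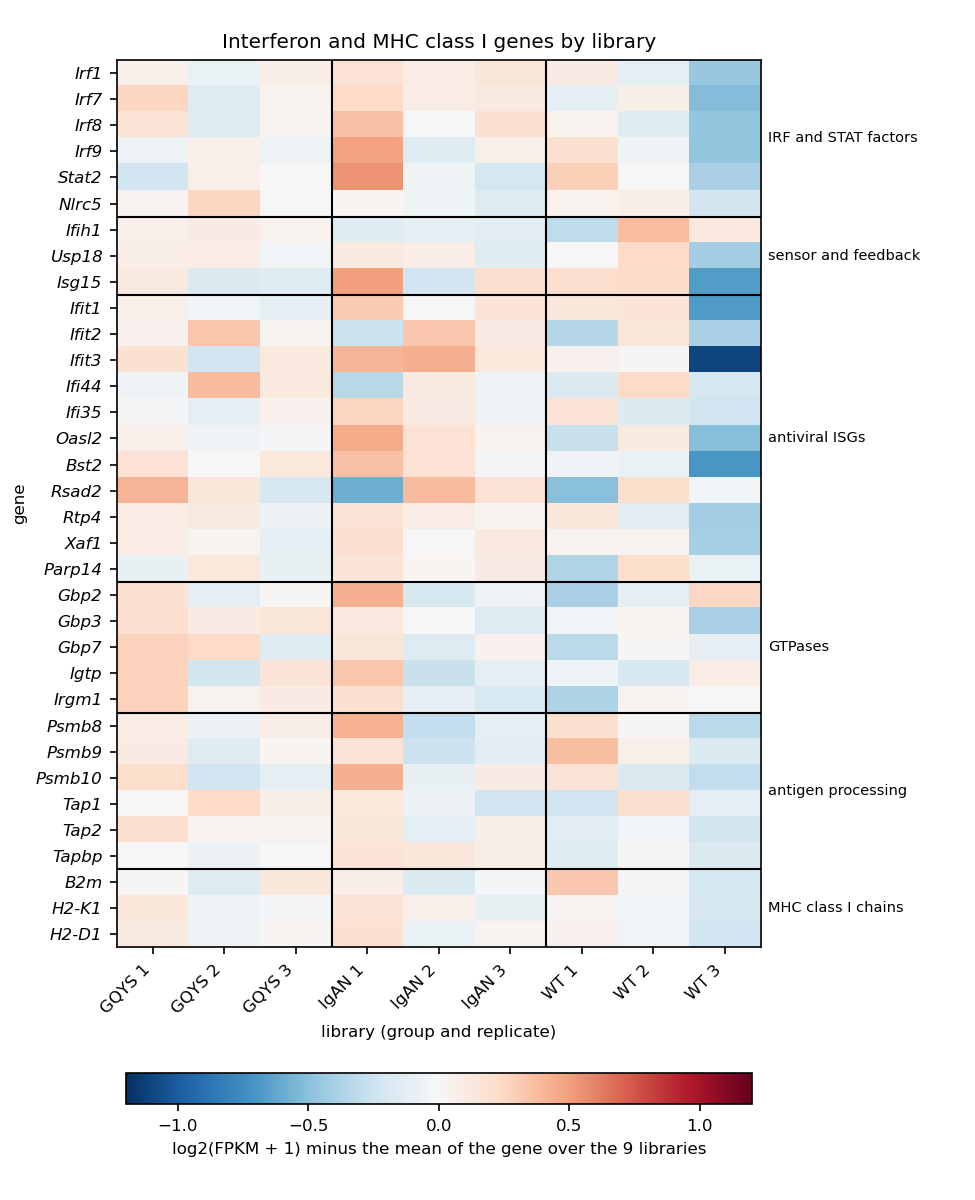
Heat map of log2(FPKM + 1) minus the mean of each gene over the 9 libraries, for the 34 genes with a row (down the page, grouped by role) in the 3 GQYS, 3 IgAN and 3 WT libraries (left to right). The column of IgAN replicate 1 is blue (below the mean) for 4 genes, and that of WT replicate 3 for 31.

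The sum of macrophage and dendritic cell markers differed between these same libraries. The summed level of 10 such markers was 76.3 to 96.9 FPKM in GQYS, 112 to 173 FPKM in IgAN and 62.9 to 148 FPKM in WT. The highest sum was that of IgAN replicate 1 and the lowest that of WT replicate 3. Csf1r, C1qa, C1qb, C1qc and Lyz2 had this same highest and lowest library. Cd68 and Itgax shared only the highest and Cx3cr1 only the lowest, while Adgre1 and Mrc1 were both highest in WT replicate 2. None of the 10 markers was at 0 in any library, and none passed the test in any comparison. C1qa, a complement gene of tissue macrophages, was at 14.2, 11.3 and 15.9 FPKM in GQYS, at 26.2, 17.6 and 17.0 FPKM in IgAN and at 15.7, 19.6 and 8.73 FPKM in WT. The part of these markers in the levels of the interferon genes was not tested, and in bulk RNA fewer cells of a type and less RNA per cell cannot be told apart. T and NK cell markers were scarce, with 10 genes summing to 2.6 to 4.45 FPKM in GQYS, 2.66 to 3.81 FPKM in IgAN and 2.03 to 4.90 FPKM in WT, and Ncr1 and Gzma were at 0 in at least 1 library.

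**Figure D3:**
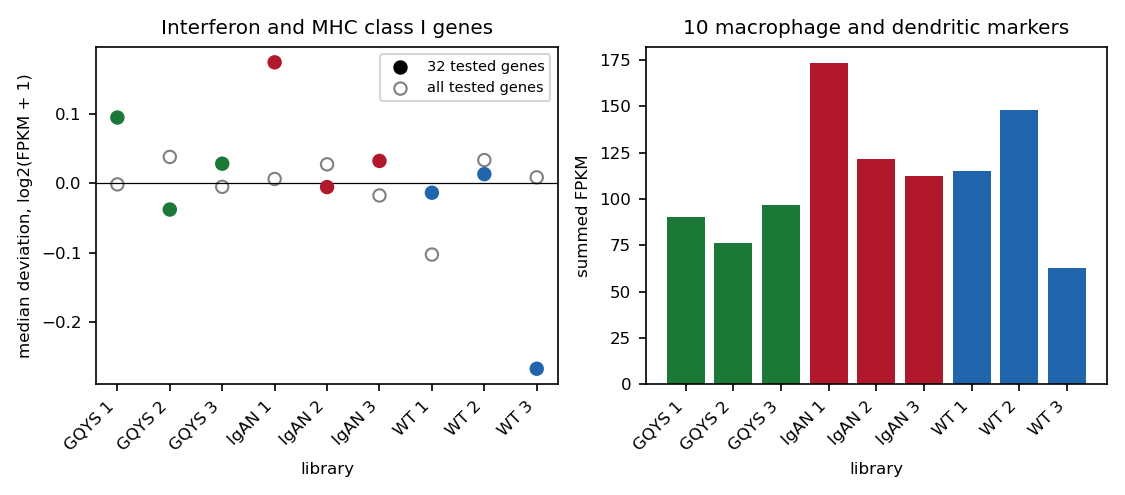
Left, median deviation of the 32 tested interferon and MHC class I genes (filled points) and of all tested genes (open points) from their mean over the 9 libraries, in log2(FPKM + 1), for each GQYS, IgAN and WT library. Right, summed FPKM of 10 macrophage and dendritic cell markers in the same libraries, highest in IgAN replicate 1 (173) and lowest in WT replicate 3 (62.9).

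The transcription factors of the pathway were at moderate levels in every group. Irf8, a factor of macrophages and dendritic cells, was at 4.91, 3.75 and 4.40 FPKM in GQYS, 5.72, 4.28 and 5.00 FPKM in IgAN and 4.43, 3.77 and 2.81 FPKM in WT. The groups overlapped, with IgAN replicate 1 highest and WT replicate 3 lowest. The fitted log2 change of Irf8 was 0.37 for IgAN against WT, with a 95% interval of 0.02 to 0.72 and an adjusted p of 0.435 (limma), and it was 0.23 without WT replicate 3. Irf7, the factor that amplifies type I interferon production, averaged 5.79 ± 0.97 FPKM in GQYS, 6.22 ± 0.41 FPKM in IgAN and 4.82 ± 1.16 FPKM in WT (SD, n = 3 each). Its lowest IgAN library, at 5.93 FPKM, lay just above its highest WT library, at 5.86 FPKM. Irf1, induced by interferon gamma, was at 4.94 to 5.65 FPKM in GQYS, 5.68 to 6.08 FPKM in IgAN and 3.59 to 5.74 FPKM in WT. Irf9 and Stat2, the DNA-binding and activating parts of the type I complex, were highest in IgAN replicate 1, at 10.2 and 6.54 FPKM, and lowest in WT replicate 3, at 4.76 and 2.96 FPKM. Nlrc5, the activator of MHC class I genes, stayed at 0.722 to 1.06 FPKM in GQYS, 0.544 to 0.748 FPKM in IgAN and 0.474 to 0.817 FPKM in WT.

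Sensor and feedback genes showed different patterns over the libraries. Ifih1, which encodes the double-stranded RNA sensor MDA5, was at 2.15, 2.24 and 2.11 FPKM in GQYS, 1.73, 1.80 and 1.76 FPKM in IgAN and 1.44, 2.91 and 2.28 FPKM in WT. Every GQYS library lay above every IgAN library, while the WT libraries spread across both. Its log2 change was 0.19 for GQYS against IgAN (95% interval -0.15 to 0.54, limma adjusted p = 0.777) and -0.19 for IgAN against WT (adjusted p = 0.759). With library quality weights the change of Ifih1 for IgAN against WT was -0.42 with an adjusted p of 0.0484, the only call of any of the 34 genes under any of the 20 alternatives. That fit called 655 of all tested genes, or 5.64%, so 1 of 32 lay below its background. Isg15, a ubiquitin-like protein, was at 4.62, 3.61 and 3.71 FPKM in GQYS, 6.31, 3.43 and 4.98 FPKM in IgAN and 5.00, 5.06 and 2.27 FPKM in WT, with wide overlap. Usp18, the protease that removes ISG15 and restrains the receptor, ranged over 1.28 to 1.48 FPKM in GQYS, 1.11 to 1.51 FPKM in IgAN and 0.749 to 1.76 FPKM in WT.

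The antiviral effectors, 10 of the 32 tested genes, held 3 of the 5 with an unadjusted limma p below 0.05 in IgAN against WT. The share of all tested genes was 10.3%. Without WT replicate 3, or without IgAN replicate 1, none of the 32 genes had such a p. Ifit3, which binds its partner IFIT1 on foreign RNA, was at 7.70, 5.53 and 7.33 FPKM in GQYS, 9.20, 9.39 and 7.40 FPKM in IgAN and 6.97, 6.74 and 2.57 FPKM in WT. Its IgAN and WT ranges did not overlap, and the value in WT replicate 3 was far below all other 8 libraries. The log2 change of Ifit3 was 0.67 for IgAN against WT (95% interval 0.05 to 1.29, limma adjusted p = 0.418) and -0.30 for GQYS against IgAN (interval -0.92 to 0.31, adjusted p = 0.827). Without WT replicate 3 the change for IgAN against WT was 0.29. Both comparisons use the same IgAN libraries. Ifit3 has a close copy, Ifit3b, and reads of the pair could be split between them by the counting.

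Oasl2, an oligoadenylate synthetase-like gene, was at 2.77, 2.52 and 2.58 FPKM in GQYS, 3.94, 3.08 and 2.74 FPKM in IgAN and 2.01, 2.91 and 1.54 FPKM in WT. The IgAN and WT libraries overlapped, since WT replicate 2 lay above IgAN replicate 3. Its log2 change was 0.44 for IgAN against WT (95% interval 0.08 to 0.81, limma adjusted p = 0.358) and -0.22 for GQYS against IgAN (interval -0.59 to 0.15, adjusted p = 0.749), or -0.11 without IgAN replicate 1. Bst2, which encodes tetherin, was at 19.7, 17.3 and 19.1 FPKM in GQYS, 22.5, 19.8 and 17.2 FPKM in IgAN and 16.9, 16.4 and 10.3 FPKM in WT. Every GQYS and IgAN library lay above every WT library, although the lowest GQYS and IgAN libraries, at 17.3 and 17.2 FPKM, were close to the highest WT library, at 16.9 FPKM. The log2 change of Bst2 was 0.44 for IgAN against WT (interval 0.05 to 0.84, adjusted p = 0.396) and 0.37 for GQYS against WT (interval -0.02 to 0.76, adjusted p = 0.999). Without WT replicate 3 these changes of Bst2 were 0.23 and 0.16.

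Ifi44, a cytoplasmic antiviral protein, was at 3.59, 5.19 and 4.18 FPKM in GQYS, 2.79, 4.13 and 3.58 FPKM in IgAN and 3.22, 4.60 and 3.13 FPKM in WT. The groups overlapped, and the log2 change was 0.24 for GQYS against IgAN (95% interval -0.14 to 0.62, limma adjusted p = 0.723), or 0.12 without IgAN replicate 1 and 0.13 without GQYS replicate 2. Ifit2, a relative of Ifit1, was at 2.5, 3.24 and 2.44 FPKM in GQYS, 1.83, 3.23 and 2.62 FPKM in IgAN and 1.66, 2.73 and 1.58 FPKM in WT. Its log2 change was 0.33 for GQYS against WT (interval -0.08 to 0.75, adjusted p = 0.999). Ifit1, a sensor of RNA caps, was at 1.55 to 1.89 FPKM in GQYS, 1.76 to 2.44 FPKM in IgAN and 0.723 to 2.09 FPKM in WT. Rsad2, which encodes viperin, was lowest in IgAN replicate 1, at 5.25 FPKM, the library in which most of the genes were highest. Ifi35, Rtp4, Xaf1 and Parp14 overlapped between all groups, with means of 8.30, 1.5, 0.877 and 2.24 FPKM in GQYS, 9.17, 1.59, 1.02 and 2.48 FPKM in IgAN and 8.0, 1.23, 0.756 and 2.14 FPKM in WT.

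**Figure D4:**
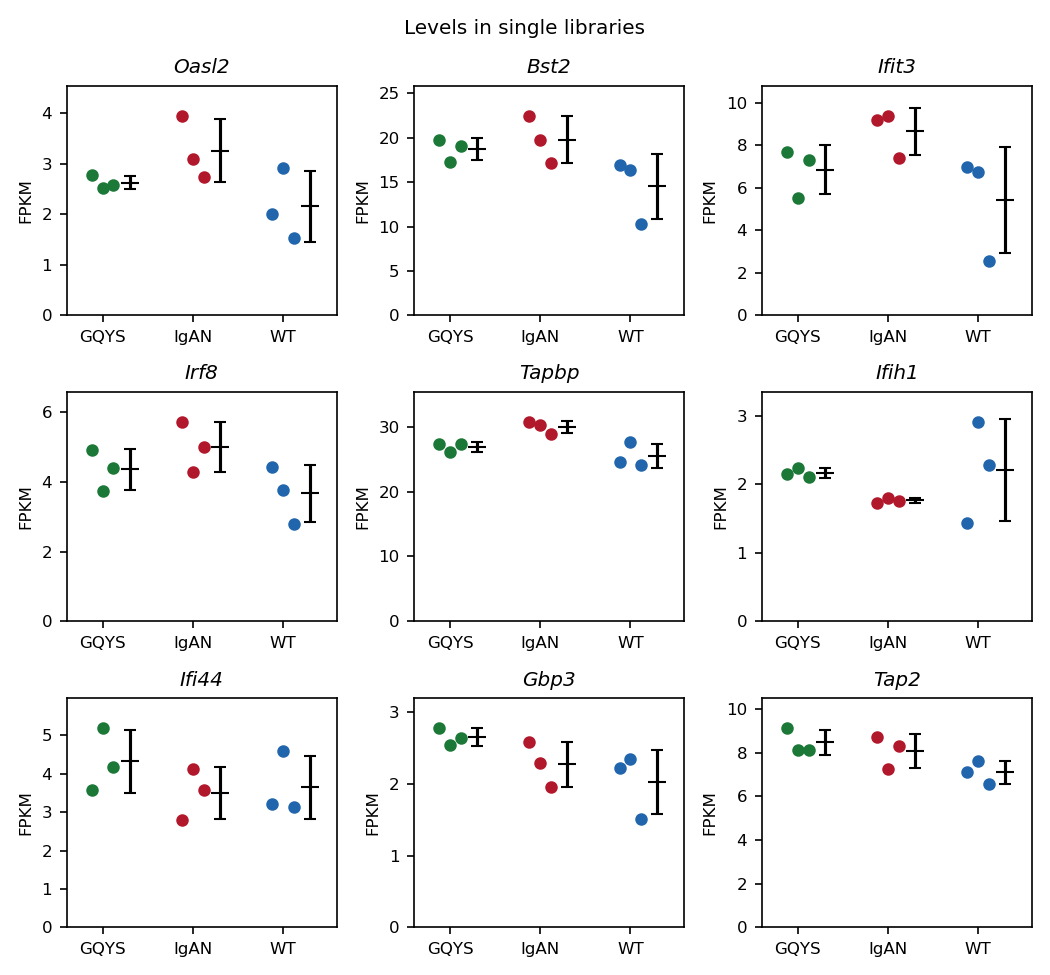
FPKM of 9 genes in each GQYS, IgAN and WT library (coloured points, replicates 1 to 3 in order), with the mean and SD of the 3 libraries of a group (black bars to the right). Ifih1 is below 1.81 in every IgAN library and above 2.10 in every GQYS library, and the lowest point of Ifit3, Bst2 and Gbp3 is WT replicate 3.

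The interferon-inducible GTPases, which assemble on vacuoles that hold pathogens, had a median log2 change of 0.10 for GQYS against IgAN and 0.25 for GQYS against WT, with 4 of 5 and 5 of 5 positive and none called. For IgAN against WT 5 of 5 were positive, but 1 of 5 when WT replicate 1 and IgAN replicate 1 were both left out. With 1 library left out the median ranged over 0.02 (without IgAN replicate 2) to 0.23 (without IgAN replicate 1) for GQYS against IgAN, and was 0.12 for GQYS against WT without WT replicate 1. Gbp3, a guanylate-binding protein, was at 2.78, 2.54 and 2.64 FPKM in GQYS, 2.58, 2.28 and 1.96 FPKM in IgAN and 2.22, 2.35 and 1.52 FPKM in WT. The GQYS libraries lay above all WT libraries, and the log2 change was 0.28 for GQYS against WT (95% interval -0.01 to 0.58, limma adjusted p = 0.999) and 0.16 for GQYS against IgAN (interval -0.13 to 0.46, adjusted p = 0.787). Without WT replicate 3 the change of Gbp3 for GQYS against WT was 0.15. Irgm1, which regulates the other immunity-related GTPases, was at 22.2, 18.8 and 19.6 FPKM in GQYS, 20.8, 16.9 and 15.9 FPKM in IgAN and 13.8, 18.7 and 18.1 FPKM in WT. Its GQYS and WT ranges were apart by a narrow margin, with a log2 change of 0.25 (interval -0.07 to 0.57, adjusted p = 0.999). Gbp2, Gbp7 and Igtp overlapped between all groups, with 4.39 to 5.61, 1.82 to 2.80 and 7.42 to 10.9 FPKM in GQYS, 4.08 to 6.79, 1.82 to 2.48 and 7.16 to 11.4 FPKM in IgAN and 3.44 to 5.89, 1.51 to 2.17 and 7.60 to 9.46 FPKM in WT. Igtp shares exon sequence with Irgm2 in the GENCODE M21 annotation, so their reads could be mixed.

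Peptide cutting and loading genes varied less between libraries than the antiviral genes, with a median SD over the 9 libraries of 0.19 against 0.27 on the log2(FPKM + 1) scale. Tapbp, which encodes tapasin, the bridge between MHC class I and the peptide transporter, was at 27.3, 26.0 and 27.4 FPKM in GQYS, 30.7, 30.2 and 28.9 FPKM in IgAN and 24.6, 27.6 and 24.2 FPKM in WT. The IgAN libraries lay above all libraries of the other 2 groups. The log2 change of Tapbp was 0.23 for IgAN against WT (95% interval 0.02 to 0.43, limma adjusted p = 0.402) and -0.15 for GQYS against IgAN (interval -0.35 to 0.06, adjusted p = 0.661). Tap2, a subunit of that transporter, was at 9.13, 8.13 and 8.14 FPKM in GQYS, 8.72, 7.23 and 8.30 FPKM in IgAN and 7.10, 7.63 and 6.57 FPKM in WT. Its GQYS libraries lay above all WT libraries, with a log2 change of 0.22 (interval -0.02 to 0.47, adjusted p = 0.999). Tap1, the partner subunit, overlapped between groups, at 3.38 to 4.16 FPKM in GQYS, 2.71 to 3.78 FPKM in IgAN and 2.72 to 4.04 FPKM in WT.

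Psmb8, Psmb9 and Psmb10 encode the catalytic subunits of the immunoproteasome and replace Psmb5, Psmb6 and Psmb7 of the standard proteasome. Psmb8 was at 9.73, 8.57 and 9.65 FPKM in GQYS, 12.5, 7.19 and 8.34 FPKM in IgAN and 10.5, 9.16 and 7.06 FPKM in WT. The ratio of its FPKM to that of Psmb5 was 0.0542 to 0.0578 in GQYS, 0.0410 to 0.0614 in IgAN and 0.0468 to 0.0537 in WT. For Psmb9 to Psmb6 the ratio was 0.0367 to 0.0399 in GQYS, 0.0326 to 0.0378 in IgAN and 0.0377 to 0.0435 in WT, and for Psmb10 to Psmb7 it was 0.0607 to 0.0729 in GQYS, 0.0626 to 0.0886 in IgAN and 0.0569 to 0.0683 in WT. The standard subunit was thus far more abundant per length in every library, and the ratios of the groups overlapped except for Psmb8 to Psmb5, where GQYS lay just above WT. Psmb9 was lowest in IgAN replicate 2, at 3.07 FPKM, and highest in WT replicate 1, at 5.24 FPKM. Psmb9 and Tap1 lie head to head and their annotated exons overlap, so without a stated strand setting reads at the shared end cannot be assigned.

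The MHC class I chains were by far the most abundant of the genes per length. B2m, the light chain beta-2 microglobulin, was at 273, 242 and 298 FPKM in GQYS, 286, 241 and 267 FPKM in IgAN and 339, 266 and 234 FPKM in WT. H2-D1, a classical heavy chain, was at 152, 135 and 143 FPKM in GQYS, 160, 133 and 144 FPKM in IgAN and 146, 138 and 120 FPKM in WT. H2-K1, the other classical heavy chain here, was at 122, 108 and 110 FPKM in GQYS, 124, 116 and 104 FPKM in IgAN and 114, 109 and 97.1 FPKM in WT. For all 3 genes the groups overlapped, and WT replicate 3 was the lowest library. The median SD of the 3 genes over the 9 libraries was 0.12 on the log2(FPKM + 1) scale. For GQYS against IgAN the limma log2 changes were 0.03 for B2m, -0.02 for H2-D1 and -0.02 for H2-K1. Their 95% intervals covered -0.30 to 0.36, -0.27 to 0.23 and -0.26 to 0.23, in the same gene order. For IgAN against WT the changes were -0.06, 0.11 and 0.11, with intervals of -0.39 to 0.27, -0.14 to 0.36 and -0.14 to 0.35. For GQYS against WT the changes were -0.03, 0.09 and 0.09, with intervals of -0.36 to 0.30, -0.16 to 0.34 and -0.16 to 0.33. The heavy chain genes are similar in sequence to each other and to other class I loci, so their reads could be shared.

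Saline-treated knock-in kidneys were set against wild-type kidneys in IgAN against WT. Of the 32 tested genes 27 had a positive fitted change and 5 a negative one, with a median of 0.16, beside 54.7% positive and a median of 0.02 over all tested genes. The FPKM ranges were apart for Irf7, Ifit3, Bst2 and Tapbp, all higher in IgAN, which is 4 of 32 against a background of 14.0% (9.18% higher and 4.8% lower). The 95% intervals of 31 of the 32 genes lay within 1 log2 unit of 0, beside 11105 of all 11617 tested genes. The exception was Ifit3. Without WT replicate 3 the median was 0.10, beside 0.035 over all tested genes, and the count at an unadjusted p below 0.05 was 0 instead of 5. Without IgAN replicate 1 the median was 0.08, beside 0.020 over all tested genes, and that count was also 0. The shares of all tested genes in these fits were 7.88% without IgAN replicate 1 and 9.61% without WT replicate 3. When WT replicate 1 was left out the count was 8 of 32, of which 7 were higher and 1, Ifih1, was lower in IgAN, beside 19.8% of all tested genes.

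The effect of the granules within knock-in mice was addressed by GQYS against IgAN. Of the 32 genes 14 had a positive and 18 a negative fitted change, with a median of -0.02, beside 51.6% positive and a median of 0.01 over all tested genes. All 5 tested IRF and STAT factors had a negative fitted change, between -0.16 and -0.10, and none passed. Without IgAN replicate 1, 3 of these 5 were negative. The ranges were apart for 3 of 32 genes against a background of 19.1% (9.84% higher and 9.29% lower). Ifih1 was higher, and Irf1 and Tapbp were lower in GQYS. The intervals of all 32 genes lay within 1 log2 unit of 0, beside 11107 of all 11617 tested genes.

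Treated knock-in kidneys were set against wild-type kidneys in GQYS against WT. Of the 32 genes 29 had a positive and 3 a negative fitted change, with a median of 0.12, beside 59.3% positive and a median of 0.03 over all tested genes. The ranges were apart for Bst2, Gbp3, Irgm1 and Tap2, all higher in GQYS, which is 4 of 32 against a background of 9.74% (7.14% higher and 2.61% lower). Without WT replicate 3 the median was 0.041, beside 0.045 over all tested genes, and 21 of 32 changes were positive. With all 9 libraries the intervals of all 32 genes lay within 1 log2 unit of 0, beside 11342 of all 11617 tested genes.

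**Figure D5:**
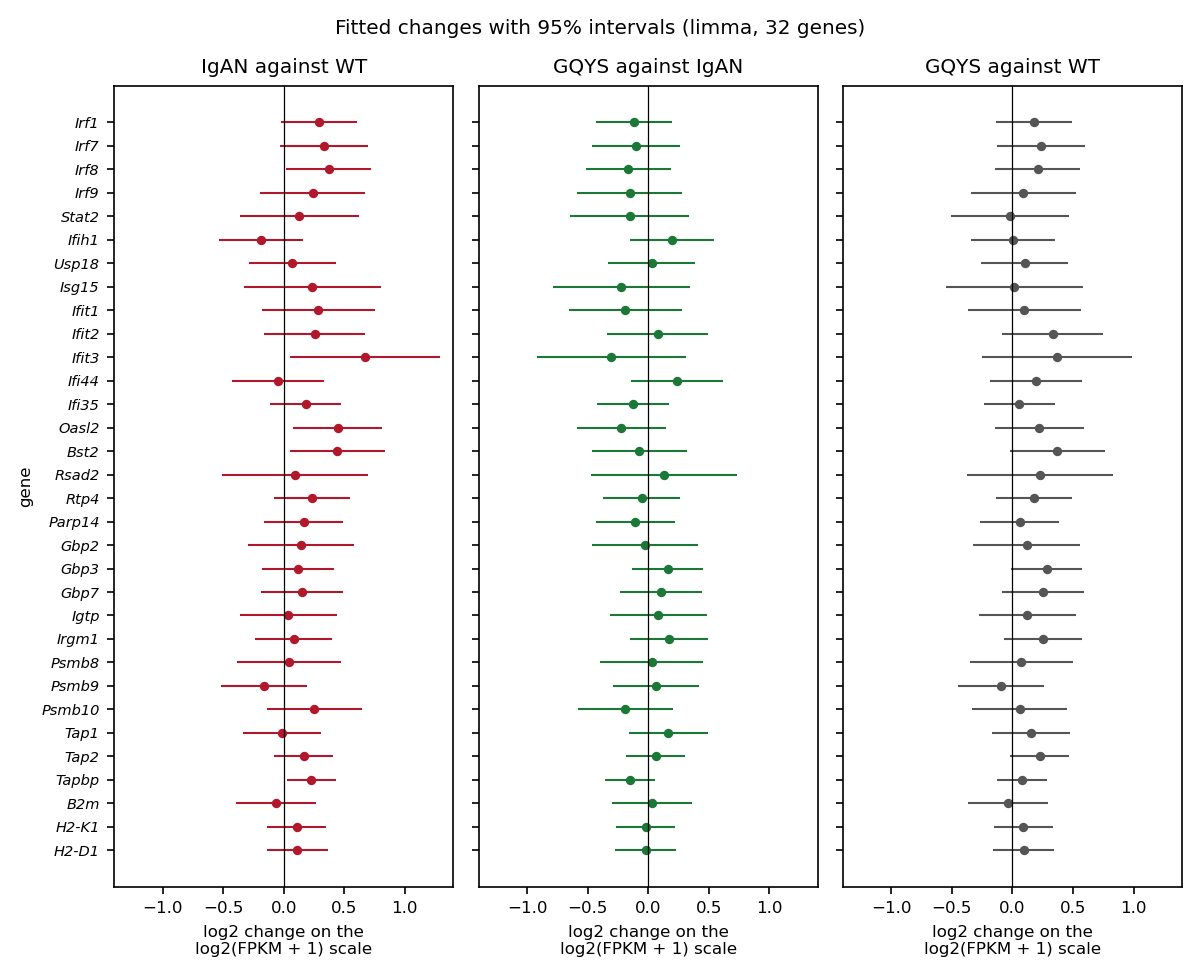
Fitted log2 changes (points) with 95% intervals (lines) of the 32 tested genes on the log2(FPKM + 1) scale, in a panel each for IgAN with WT, GQYS with IgAN and GQYS with WT. The intervals of 31, 32 and 32 genes lie within 1 unit of 0, beside 11105, 11107 and 11342 of all 11617 tested genes. The widest reach is that of Ifit3 in IgAN against WT, to 1.29.

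The interferon genes that had a row were at or near 0 in every library. Of 22 ligand genes 6 had a row, and those without a row were not analysed here. Only Il15, a cytokine induced by interferon, passed the filter, at 3.17 to 6.34 FPKM over the 9 libraries. Ifnb1, interferon beta, was listed at 0 in 8 libraries and at 0.0315 FPKM in WT replicate 2. Ifng, interferon gamma, was listed at 0, 0.0219 and 0.0527 FPKM in GQYS, at 0 in all 3 IgAN libraries and at 0.141, 0.0216 and 0.134 FPKM in WT. Such levels are too low to compare.

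The receptors were present in every library and none passed the test. Ifnar1, a chain of the type I receptor, was at 6.69, 6.85 and 6.35 FPKM in GQYS, 7.74, 7.05 and 6.48 FPKM in IgAN and 5.60, 6.63 and 6.58 FPKM in WT. Ifnar2, the other chain, was at 4.23, 4.10 and 3.96 FPKM in GQYS, 4.19, 4.15 and 4.34 FPKM in IgAN and 3.75, 3.86 and 3.14 FPKM in WT, so both knock-in groups lay above WT (limma log2 change 0.19 for IgAN against WT, adjusted p = 0.575, and 0.16 for GQYS against WT, adjusted p = 0.999). Without WT replicate 3 these changes of Ifnar2 were 0.12 and 0.09. The ranges were apart for 14.0% and 9.74% of all tested genes in these comparisons. Ifngr1, which binds interferon gamma, reached 26.3 FPKM in IgAN replicate 1 and lay between 15 and 19.6 FPKM in the other 8 libraries. Ifngr2, its signalling partner, was also highest in IgAN replicate 1, at 14.6 FPKM.

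The 6 further lists of ligands, receptors and factors, sensors, other interferon-stimulated genes, other class I and loading genes and standard proteasome subunits held 207 symbols, of which 124 were tested. None passed at an adjusted p of 0.05 in any comparison, and the smallest of these adjusted p was 0.15. An unadjusted p below 0.05 was found for 16 in IgAN against WT (14 higher and 2 lower), for 12 in GQYS against IgAN (3 higher and 9 lower) and for 3 in GQYS against WT, all higher, beside the background shares of 10.3%, 10.4% and 4.43% given above. Cxcl10, a chemokine that attracts T cells, was at 4.47, 3.08 and 5.25 FPKM in GQYS, 8.37, 8.28 and 9.69 FPKM in IgAN and 5.58, 5.40 and 3.06 FPKM in WT. The IgAN libraries lay above all others. Its log2 change was 0.82 for IgAN against WT (95% interval 0.35 to 1.28, limma adjusted p = 0.164) and -0.91 for GQYS against IgAN (interval -1.38 to -0.45, adjusted p = 0.15). Sting1, the adaptor of cytosolic DNA sensing, was at 1.92, 1.36 and 1.55 FPKM in GQYS, 5.25, 2.95 and 2.67 FPKM in IgAN and 1.59, 2.14 and 1.19 FPKM in WT.

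Stat3, a factor of interleukin-6 signalling counted with the other interferon-stimulated genes, was at 11.0, 14.0 and 12.6 FPKM in GQYS, 26.9, 19.1 and 17.4 FPKM in IgAN and 10.3, 15 and 14.6 FPKM in WT. The log2 changes of Sting1 and Stat3 were 0.78 and 0.62 for IgAN against WT (limma adjusted p = 0.180 and 0.240) and -0.79 and -0.69 for GQYS against IgAN (0.192 and 0.205). With library quality weights Cxcl10 passed in IgAN against WT and in GQYS against IgAN (adjusted p = 0.0316 and 0.0322), and Stat3 in GQYS against IgAN (0.0322). That fit called 5.64% of all tested genes in IgAN against WT and 3.48% in GQYS against IgAN. In GQYS against WT the smallest unadjusted p were those of Plscr1, a phospholipid scramblase, Ifi204, a DNA sensor of a family with close copies, and Sp100, a nuclear body protein, with log2 changes of 0.39, 0.29 and 0.30 and limma adjusted p of 0.999 each.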

How the data were processed

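RNA of 9 mouse kidney samples was extracted with TRIzol and sequenced, per the labels' protocols. For 26139 gene symbols the authors gave FPKM in a single deposited table. Tools named by the submitters' processing notes, with no role or order, are HISAT2, HTSeq, fastp, R 3.2.0 and DESeq2, with the build GRCm39. No source states the annotation or the strand setting, and 15 of the 35 genes share exon positions with another gene in GENCODE M21, 10 of them with a gene on the opposite strand.

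Reads were taken as the smallest whole numbers that fit the steps of the FPKM values, to within 0.03 reads, for 26139 genes. For a gene with reads in 1 library or none such a fit is certain. Reads that share a common factor are understated. Chi-square per gene between libraries of a group was 18.9 to 203, so no library was a copy. The test was limma 3.58.1 in R 4.3.3 run on log2(FPKM + 1) with trended prior variances and all 9 libraries in 1 fit, over genes with at least 1 FPKM in at least 3 libraries. P-values were adjusted by the Benjamini-Hochberg method over 11617 tested genes, with a threshold of 0.05. A fold on this scale understates the change of low genes. Intervals are 95% intervals of the same fit, which was tested on simulated data. By rule, the text names the 5 genes with the smallest p in each comparison and the 5 most abundant, the receptors, Ifnb1 and Ifng, and the 3 genes of the wider lists with the smallest p. Other genes were named after their values were seen. A gene of the wider lists is not reported here. The genes and lists were chosen with earlier results of these data known. Promoter windows came from RefSeq (GRCm38.p6), and 31 of 35 matched GENCODE transcripts in the stated orientation and 0 in the reverse. Figures were drawn with Python 3.11.15 and matplotlib 3.10.9.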

Additional observations from a re-analysis of the deposited data

How the results depend on the processing

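Of the 32 tested genes (34 in the fit without a filter and in the voom fit), 0 were called in each comparison under 19 of 20 alternatives. Library quality weights called 1, Ifih1, in IgAN against WT. The cause was not tested. Over all tested genes, the calls in IgAN against WT and GQYS against IgAN numbered 41 and 23 as reported, 655 and 404 with quality weights, 21 and 13 without a filter, 39 and 15 with a pseudocount of 0.1, 11 and 43 in fits of the 6 libraries compared, and 14 to 65 and 6 to 54 with 1 library left out. In GQYS against WT the calls numbered 0 as reported and 53 with quality weights. Libraries sharing a replicate number had correlated deviations over 0.1 in 6 of 9 pairs, those of replicates 1 and 2. The pairs of replicate 3 did not (range over these 9 pairs -0.364 to 0.581). Pairs with different numbers ranged from -0.629 (IgAN replicate 2 with WT replicate 1) to 0.526 (IgAN replicate 2 with WT replicate 3). The numbers were therefore not taken as pairs. A replicate block called 68 and 26 genes and 0 of the 32 tested genes of the set. The fits without a pair of libraries and the voom fit were chosen after seeing the data.

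Of 960 values of named genes, 920 kept direction and side of the threshold, 3 newly passed it and 37 changed sign, in 11 results. Leaving out 1 library gave log2 changes of -0.18 to 0.083 for B2m and -0.049 to 0.158 for Irgm1 in IgAN against WT. In GQYS against IgAN it gave -0.040 to 0.109 for B2m, -0.080 to 0.050 for H2-D1 and -0.084 to 0.041 for H2-K1, and in GQYS against WT -0.153 to 0.113 for B2m and -0.048 to 0.235 for Ifngr2. Quality weights gave 0.010 for B2m and -0.125 for Irgm1 in IgAN against WT, 0.016 for H2-D1 and 0.046 for H2-K1 in GQYS against IgAN, and 0.108 for B2m, -0.0095 for Ifnar1 and -0.128 for Ifngr2 in GQYS against WT. For H2-D1 and H2-K1 in GQYS against IgAN, totals without mitochondrial genes gave 0.013 and 0.013, and quantile normalization 0.024 and 0.030. Without both WT replicate 1 and IgAN replicate 1 the change was 0.026 for B2m and -0.158 for Irgm1 in IgAN against WT. Without both WT replicates 1 and 3 it was -0.073 for Irgm1 in IgAN against WT, and in GQYS against WT 0.021 for B2m, -0.0067 for Ifit2, -0.036 for Tapbp, -0.023 for Ifngr1 and -0.198 for Ifngr2. The highest values of these genes in GQYS against WT, without WT replicate 2, were 0.503 for Ifit2, 0.137 for Tapbp and 0.300 for Ifngr1. The cause was not tested for any of these. At this depth Ifnb1 and Ifng were at or near 0.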
